A study of Mus musculus with 4 samples.

Results

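The genes described here carry the insulin signal from the cell surface to the FoxO transcription factors or encode regulators beside that chain. They are 10 of the 12393 genes that had a probe set of their own, Insr, Irs1, Irs2, Pik3r1, Akt1, Akt2, Foxo1, Foxo3, Trib1 and Sik1, and every probe set of the array whose annotation names one of them was taken, which gave 21 of the 22690 probe sets. The array was the Affymetrix MOE430A, hybridized with total liver RNA of male mice that were 12 to 20 weeks old. Wild-type mice (129S1/SvImJ in the series design, 129Sv in the sample labels) and PPARα-null mice (129S4/SvJae) were either fed and killed as the dark cycle ended or fasted for 24 hours from the onset of light, and the RNA of 5 mice per group, by the series design, was pooled before labelling (4 or 5 in another passage of the study's text). Each of the 4 groups was therefore 1 array, no difference had a replicate check, and no p-value or error between animals could be given. Genotype and substrain could not be told apart, because each genotype was of another substrain.

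Insulin binds a receptor tyrosine kinase, the product of Insr, which phosphorylates the adaptor proteins IRS1 and IRS2. These recruit phosphatidylinositol 3-kinase through its regulatory subunit p85α, the product of Pik3r1, and the lipid signal activates the kinases AKT1 and AKT2. In liver AKT phosphorylates FoxO1 and FoxO3 and keeps them out of the nucleus, and in fasting, when insulin is low, FoxO factors enter the nucleus and activate genes of glucose production and several genes of the insulin pathway itself. The array measured transcript levels and says nothing on phosphorylation or on where a protein was located.

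Promoter sequence is shown for 3 members. Irs1 and Foxo1 are shown because they differed most between the arrays, and Irs2 because it encodes the other adaptor. The sequences are from RefSeq, assembly GRCm38.p6, and run 5′ to 3′ on the strand of the gene from 250 bases before the gene start to 50 bases after it. The Irs1 window is chr1:82291390-82291689 on the minus strand, the Irs2 window chr8:11008880-11009179 on the minus strand and the Foxo1 window chr3:52268087-52268386 on the plus strand. Capitals mark matches on either strand to TGTTTAC (the FoxO core), TGTTTTG (the core of insulin response sequences), TGACGTCA (the full cAMP response element), CACGTG (the E-box) or a perfect direct repeat of the PPAR half-site with 1 base between.
Irs1: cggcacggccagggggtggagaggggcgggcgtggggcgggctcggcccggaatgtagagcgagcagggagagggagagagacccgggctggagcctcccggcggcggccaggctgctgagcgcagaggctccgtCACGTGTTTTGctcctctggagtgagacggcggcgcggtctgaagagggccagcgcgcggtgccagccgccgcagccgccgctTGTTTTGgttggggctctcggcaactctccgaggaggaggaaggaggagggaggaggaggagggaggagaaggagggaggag
Irs2: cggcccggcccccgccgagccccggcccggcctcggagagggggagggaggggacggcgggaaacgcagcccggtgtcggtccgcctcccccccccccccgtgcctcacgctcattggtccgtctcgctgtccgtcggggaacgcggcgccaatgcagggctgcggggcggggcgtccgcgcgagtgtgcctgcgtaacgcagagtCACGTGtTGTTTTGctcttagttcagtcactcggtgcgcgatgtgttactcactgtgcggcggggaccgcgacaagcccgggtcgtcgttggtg
Foxo1: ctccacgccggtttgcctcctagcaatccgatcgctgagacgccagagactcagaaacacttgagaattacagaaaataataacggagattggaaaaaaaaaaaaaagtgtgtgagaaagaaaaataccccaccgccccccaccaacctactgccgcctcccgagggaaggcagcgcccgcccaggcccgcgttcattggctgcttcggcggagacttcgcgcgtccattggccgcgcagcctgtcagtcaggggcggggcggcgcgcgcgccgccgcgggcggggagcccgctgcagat

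The Irs1 window held TGTTTTG at positions -111 and -32 from the gene start and CACGTG at -115, which shares 2 bases with the first TGTTTTG. The Irs2 window held CACGTG at -44 and TGTTTTG at -37. The Foxo1 window held none of the 5 motifs. TGTTTTG occurred in 6.28% and CACGTG in 7.15% of the 32851 RefSeq promoter windows of the same length. The table of promoters held 7 of the 10 members in 12 windows, and besides those shown only 1 of the 12 had a match, in an Akt1 window, where TGTTTAC stood at position -161, and 3.65% of all windows held that motif. These are letter matches in short windows and not binding sites.

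Of the 10 members 8 were measured, which means that the brightest of their probe sets exceeded a floor of 16 intensity units on at least 1 array. This floor lies close to the median of all probe sets, which was between 14.4 and 14.6 units on the 4 arrays. Of the 21 probe sets 14 were above the floor on at least 1 array and 7 were below it throughout. Intensities are GCRMA values on a linear scale, and since probe sets differ in how well they hybridize, no level of one gene was set against that of another. The RNA came from whole liver, so fewer cells of a type and less RNA per cell cannot be told apart. The deleted gene itself, Ppara, read 583 units in fed and 755 units in fasted wild-type liver, 104 units in fed null and 16.3 units in fasted null liver.

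**Figure D1:**
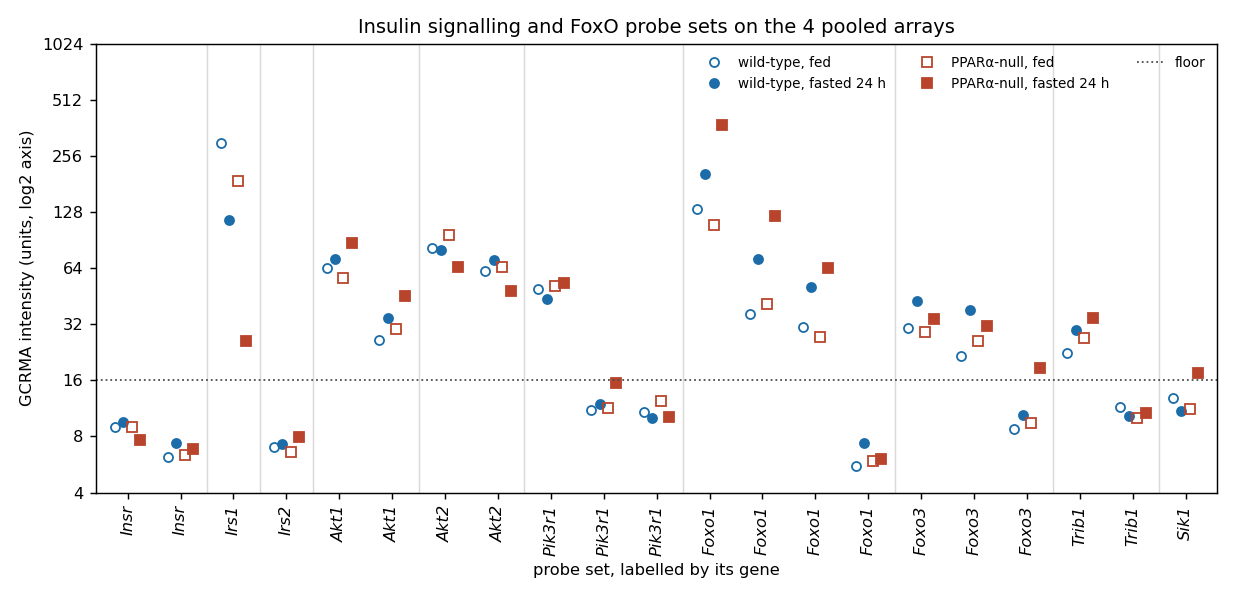
GCRMA intensity (y axis, log2 scale, units) of all 21 probe sets of the 10 genes, with a circle for each wild-type and a square for each PPARα-null array, open when fed and filled when fasted for 24 h, with the floor of 16 units as a dotted line. Irs1 spans 26.1 to 301 units with fed wild-type highest and fasted null lowest, the 3 brighter Foxo1 probe sets all have fasted null highest, and both Insr probe sets and the Irs2 probe set lie below the floor.

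The receptor and its 2 adaptors came first in the pathway, and only Irs1 could be followed. Insr, the insulin receptor gene, had 2 probe sets, whose values lay between 6.22 and 9.55 units on all arrays. Irs2, the adaptor gene known as a fasting-induced FoxO target in liver, had 1 probe set with 7.04, 7.33, 6.61 and 7.92 units in fed wild-type, fasted wild-type, fed null and fasted null liver. All of these are below the floor, so no difference is read from either gene, and the values do not show that the transcripts were absent.

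Irs1 had the widest range of all members. Its 1 probe set had 301 units in fed wild-type, 188 units in fed null, 116 units in fasted wild-type liver and as little as 26.1 units after fasting of null mice. Both fasted pools were below both fed pools, and within each feeding state the null pool was below the wild-type pool. Fasting was accompanied by a 2.59-fold lower Irs1 signal in wild-type liver (log2 difference -1.37) and by a 7.19-fold lower one in PPARα-null liver (log2 difference -2.85). Fed null mice had a 1.60-fold lower signal than fed wild-type mice and fasted null mice a 4.44-fold lower signal than their controls, with log2 differences of -0.68 and -2.15. The difference of the 2 fasting responses was -1.47 on the log2 scale, and it was not tested, as each response rests on 2 arrays. Of the 6947 measured genes 42 had a more negative fasting difference than Irs1 in null liver, 118 had one in wild-type liver, and 1.19% had a wider range over the 4 arrays. A second probe set that could check Irs1 was not among the 21.

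Pik3r1, the gene of the regulatory subunit p85α, hardly moved. By its brightest probe set it had 49.7 units in fed wild-type, 43.7 units in fasted wild-type, 51.3 units in fed null and 53.3 units in fasted null liver, and the largest of its 4 differences was 1.22-fold. The other 2 probe sets of Pik3r1 stayed below 16 units.

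The 2 Akt genes ran in opposite directions with fasting in the null pools. Akt1 read 64.04 and 72.0 units in fed and fasted wild-type liver and 56.9 and 87.9 units in fed and fasted null liver. It was 1.54-fold higher with fasting in null liver and 1.12-fold higher in wild-type liver. Its second probe set gave 1.49-fold and 1.30-fold in the same order, so that Akt1 in null liver lay at the threshold rather than clearly past it. Akt2, the isoform with the main part in hepatic insulin action, read 82.5 and 80.5 units in fed and fasted wild-type liver and 96.9 and 64.9 units in fed and fasted null liver. With fasting it was 1.49-fold lower in null liver and had a log2 difference of -0.04 in wild-type liver, and the second probe set was 1.35-fold lower in null liver. Neither Akt2 value reached 1.5-fold. The fasted null array was the highest of the 4 for both Akt1 probe sets and the lowest of the 4 for both Akt2 probe sets.

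Foxo1, which encodes the main FoxO factor of hepatocytes, moved in the direction opposite to Irs1. The brightest of its probe sets had 133 units in fed wild-type, 206 units in fasted wild-type, 110 units in fed null and 376 units in fasted null liver. Fasting was accompanied by a 1.55-fold higher signal in wild-type and a 3.43-fold higher signal in PPARα-null liver, and fasted null stood 1.83-fold above fasted wild-type. The second probe set read 36.2, 71.3, 41.3 and 122 units in the order fed wild-type, fasted wild-type, fed null and fasted null, and the next 31.0, 50.5, 27.3 and 64.3 units. All 3 probe sets put both fasted pools above both fed pools and fasted null highest. The fasting difference in null liver was 2.96-fold in the second and 2.36-fold in the dimmer one, and in wild-type liver it was 1.97-fold and 1.63-fold. The latter probe set put fasted null 1.27-fold above fasted wild-type, below the threshold. In the fed state the 3 probe sets gave log2 differences of -0.28, 0.19 and -0.18 between null and wild-type, with no common sign. The last Foxo1 probe set stayed between 5.52 and 7.40 units. The difference of the 2 Foxo1 fasting responses was 1.15 on the log2 scale in the brightest probe set. It was smaller in the second, with log2 fasting differences of 1.57 in null and 0.98 in wild-type liver. In the next they were 1.24 and 0.71. There the difference of responses lay at or below the 1.5-fold threshold. By brightest probe sets, a difference of responses of 1.5-fold or more was found for 1 of 8 members on the positive side, Foxo1, beside 9.14% of all measured genes. On the negative side it was found for 1 of 8, Irs1, beside 14.9%.

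Foxo3, a second FoxO factor of liver, was dimmer and its pattern was not that of Foxo1. Its brightest probe set read 30.7 and 42.9 units in fed and fasted wild-type liver and 29.1 and 34.3 units in fed and fasted null liver. The fasting difference was 1.40-fold in wild-type and 1.18-fold in null liver, and in the second probe set it was 1.76-fold and 1.21-fold. Fasted wild-type was the highest array in both, whereas for Foxo1 it was fasted null. The dimmest probe set exceeded the floor on the fasted null array alone, at 18.6 units, and so disagreed with the other two.

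Trib1 and Sik1 encode regulators beside the main chain. TRIB1 is a pseudokinase that directs C/EBPα to degradation and influences hepatic lipid synthesis. Its brightest probe set read 22.5 and 29.8 units in fed and fasted wild-type liver and 26.9 and 34.8 units in fed and fasted null liver, which was 1.32-fold and 1.29-fold higher with fasting. The second Trib1 probe set was below the floor on all arrays. SIK1 is a salt-inducible kinase, itself induced through CREB, that restrains the CREB coactivators of gluconeogenesis. Its probe set read 12.9, 10.996 and 11.3 units in fed wild-type, fasted wild-type and fed null liver, all below the floor, and 17.6 units in fasted null liver, just above it, so no fold is given.

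**Figure D2:**
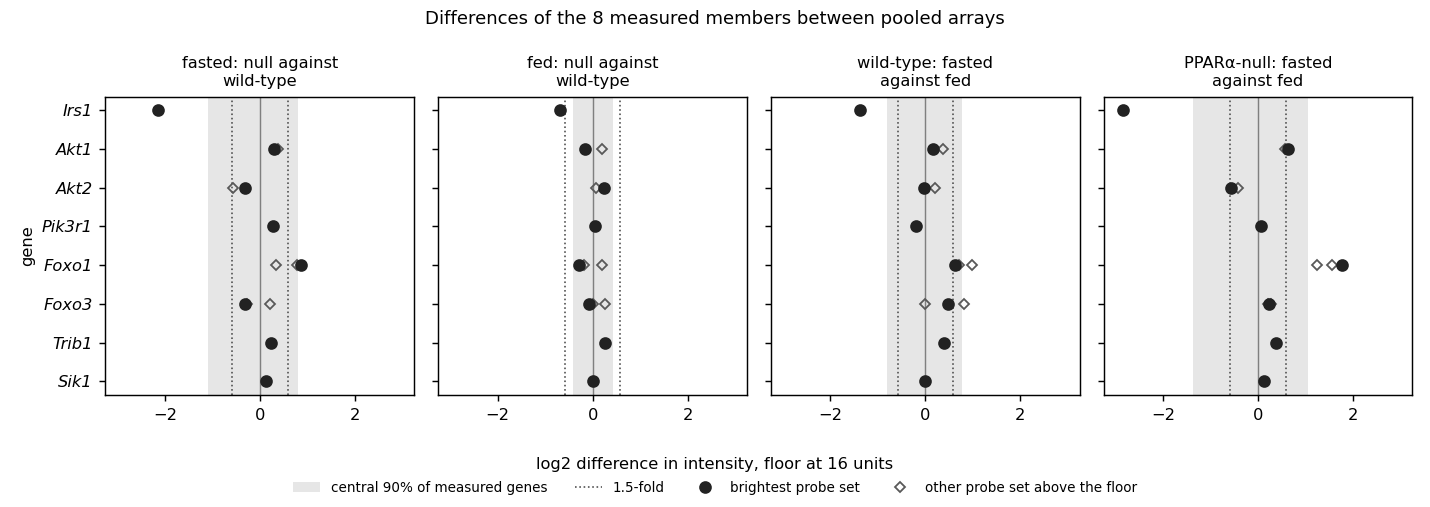
Log2 differences in intensity (x axis, values below 16 units set to 16) of the 8 measured members in the 4 comparisons, with filled circles for the brightest probe set, open diamonds for other probe sets above the floor, dotted lines at 1.5-fold and a grey band over the central 90% of the 6947 measured genes. Irs1 lies outside the band in all 4 panels, at -2.15, -0.68, -1.37 and -2.85, and Foxo1 lies at 0.87, -0.28, 0.63 and 1.78.

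With 8 measured members, 1 member is 12.5% of them, so the counts past 1.5-fold move in coarse steps and are given beside the shares of all genes as a description. In fasted null against fasted wild-type liver 1 of 8 was lower, which was Irs1, beside 13.6% of all measured genes, and 1 of 8 was higher, which was Foxo1, beside 8.58%. In the fed comparison of genotypes 1 of 8 was lower, again Irs1, beside 2.12%, and 0 of 8 were higher beside 2.38%. With fasting in wild-type liver Irs1 was the 1 member lower, beside 8.29% of genes, and Foxo1 the 1 member higher, beside 8.2%. With fasting in null liver Irs1 was lower, beside 18% of genes, and Foxo1 and Akt1 were higher, beside 12.4%. The genotype comparisons and the fasting comparisons share arrays, so the recurrence of Irs1 and Foxo1 across them is not repeated evidence. The 2 fasting comparisons share none, and in both of them Irs1 was lower and Foxo1 higher. Each was still 1 array against 1, and the members were chosen with earlier results of these data known, so this is no independent check. Different probe sets of the same gene with a mean of 64 units or more differed with a pooled SD, on the log2 scale, of 0.35 in the fasted and 0.20 in the fed comparison of genotypes, and of 0.25 and 0.42 in the fasting comparisons of wild-type and null liver. These SDs describe disagreement between probe sets and not the spread between mice. The median log2 difference of the 8 members was 0.18 in fasted null against fasted wild-type, where that of all measured genes was -0.01, and -0.04, 0.08 and 0.19 in the fed, wild-type fasting and null fasting comparisons, where that of all genes was 0, 0 and -0.01.

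Cell type markers also differed between the arrays, and not on the fasted null array alone. The summed intensity of 9 measured markers of Kupffer cells and macrophages, out of 10 listed, was 1101 units in the fasted null pool and 498 units in the fasted wild-type pool, beside 833 and 854 units in the fed pools, and 8 of the 9 were at least 1.5-fold higher in the former of the fasted pools. With fasting 5 of the 9 were lower and 0 higher in wild-type liver, beside 8.29% and 8.2% of all measured genes. In null liver 3 were higher and 0 lower with fasting, beside 12.4% and 18%. Cd68 of this list was at the floor. The 8 hepatocyte markers, all measured, summed to between 104508 units in fed null and 128358 units in fasted null liver. Of these 8 markers 1 was higher and 0 lower between the fasted pools. None of the 4 adipocyte or 4 skeletal muscle markers was measured. The 5 measured endothelial markers, out of 6, summed to 725 units in the fasted null pool and 447 units in the fasted wild-type pool, with 1 higher and 2 lower. The 2 measured exocrine pancreas markers, out of 5, summed to 573 and 798 units in fed wild-type and fed null liver and to 66.1 and 64.9 units in the fasted pools of the same order. The 5 measured stellate cell markers, out of 8, summed to 282 and 207 units in fed and fasted wild-type liver. In fed and fasted null liver they summed to 394 and 277 units. In each feeding state 2 were higher and 0 lower in null than in wild-type liver. Whether any of these marker signals had a part in the Foxo1, Akt1 or Irs1 values was not tested.

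The genes whose 4-array profile came closest to that of Irs1 were Chordc1, Tmem19, Dhrs3, Scd1 and Ces1e. Closeness was the Euclidean distance between log2 profiles centred on their own mean, over 4 arrays and 2900 candidate genes with a log2 intensity of 7 or more on some array. Chordc1, a gene of an HSP90 cochaperone, was nearest at a distance of 0.15, with 406 and 149 units in fed and fasted wild-type and 277 and 34.5 units in fed and fasted null liver. Tmem19 followed at 0.30, with 847, 312, 653 and 71.6 units in the order fed wild-type, fasted wild-type, fed null and fasted null. Scd1, the stearoyl-CoA desaturase gene, had 3399, 1279, 2586 and 238 units in that order. Dhrs3 lay at 0.41, Scd1 at 0.42 and Ces1e at 0.45. With 4 points a profile carries little information, and the likeness is a description.

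The rest of the pathway was followed through 5 lists of 104 genes, of which 65 were measured. In fasted null against fasted wild-type liver 5 of the 65 were higher and 10 lower, with a median log2 difference of -0.08. With each array centred on its bright probe sets the counts were 8 of 67 higher and 10 lower, beside 12.6% and 10.2% of all measured genes. In the fed state 0 of the 65 were higher and 1 lower. With fasting, 3 were higher and 2 lower in wild-type liver, and 10 were higher and 7 lower in null liver. Without centring, 15.4% of the 65 were lower between the fasted pools and 15.4% higher with fasting in null liver. These were slightly above the 13.6% and 12.4% of all measured genes. The other uncentred shares of the 65 were below those of all measured genes.

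Among receptor and adaptor partners 3 of 9 measured genes were higher and 0 lower in the fasted null pool relative to its wild-type control, beside 8.58% and 13.6% of all measured genes. These were Grb14, Igf1r and Gab1, of which the receptor gene Igf1r and the adaptor gene Gab1 were dim, at 26.1 and 25.9 units at most. Grb14, an adaptor that binds the activated insulin receptor and inhibits it, read 704 and 810 units in fed and fasted wild-type liver and 696 and 1460 units in fed and fasted null liver. It was 1.80-fold higher in the fasted null pool than in the fasted wild-type pool and 2.10-fold higher with fasting in null liver, while the 3 other arrays lay close together. Sh2b1, an adaptor that supports receptor signalling, was 1.72-fold higher with fasting in null liver. Shc1, Grb2 and Sos2, which link receptors to Ras, did not reach 1.5-fold in any comparison by their brightest probe sets.

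Among kinases and phosphatases of the phosphoinositide step 0 of 15 were higher and 2 lower in the fasted comparison of genotypes. The 2 lower genes are 13.3% of the list, close to the 13.6% of all measured genes. Phlpp1, which encodes a phosphatase that removes an activating phosphate from AKT, read 112 and 142 units in fed and fasted wild-type liver and 94.4 and 49.5 units in fed and fasted null liver, a 2.86-fold lower value in the fasted null pool than in fasted wild-type. Ptprf, a receptor phosphatase, was lower with fasting in both genotypes, at 483 and 229 units in fed and fasted wild-type and 524 and 215 units in fed and fasted null liver. Of its other probe sets 1 had log2 differences of -1.18 and -1.13 for these fasting comparisons, and the dimmest had -0.53 and -0.07, short of the threshold. Pik3c3, the class III kinase gene, was the other gene of the list lower between the fasted pools, 2.04-fold, at 55.7 and 27.3 units in wild-type and null liver. Ptpn11, the SHP2 phosphatase gene, was 1.70-fold and Ppp2cb, a catalytic subunit gene of protein phosphatase 2A, 1.52-fold higher with fasting in null liver.

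Akt effectors and relatives held the largest difference of the 5 lists between the fasted pools. Sgk1, a serum- and glucocorticoid-induced kinase related to AKT that also phosphorylates FoxO proteins, read 296, 238 and 225 units in fed wild-type, fasted wild-type and fed null liver and 1347 units in fasted null liver. It was 5.65-fold above fasted wild-type and 5.98-fold above fed null. Deptor, an inhibitor of mTOR, read 1157, 995 and 1053 units on the same 3 arrays and 327 units in fasted null liver, which was 3.04-fold below fasted wild-type, and its other probe sets, both dimmer, had log2 differences of -0.93 and -0.32. Eif4ebp1, a translational repressor inactivated through mTOR, was 1.63-fold higher and Mtor 1.83-fold lower when the fasted null pool was set against fasted wild-type. Mtor was highest in fasted wild-type liver, at 162 units against 86.8, 75.4 and 88.6 units in fed wild-type, fed null and fasted null liver. In all, 2 of the 16 genes of this list were higher and 2 lower between the fasted pools, beside 8.58% and 13.6% of all measured genes.

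The list of FoxO factors and their regulators also held forkhead factors of the FoxA group, which open chromatin at liver genes and are not FoxO factors. Of its 14 measured genes 4 were lower and 0 higher in the fasted comparison of genotypes. Among all measured genes 13.6% were lower and 8.58% higher. Of the 4 lower genes 3 were FoxA genes, and apart from them only Sirt3 was lower. Foxa3 read 185 and 235.5 units in fed and fasted wild-type liver and 172 and 46.6 units in fed and fasted null liver and was 5.05-fold lower. Foxa1 and Foxa2 were dimmer, at most 64.5 and 51.2 units, and below the floor in fasted null liver, so that they were at least 3.09-fold and at least 2.53-fold lower than in fasted wild-type liver. The deacetylase gene Sirt3 was 2.32-fold lower, with 404 units in the fasted null pool and 935 units in its control. The 14-3-3 genes, whose proteins hold phosphorylated FoxO in the cytosol, showed no difference of 1.5-fold between genotypes in their brightest probe sets. Of the dimmer ones, 2 of Ywhaz were past it in the fasted state, at log2 differences of 0.73 and 0.61, and 1 of Ywhaq in the fed state, at -0.70. With fasting in wild-type liver Ywhaq was 1.57-fold lower by its brightest probe set, from 2006 to 1278 units. Its dimmer probe sets had log2 differences from -0.98 to -0.02 there. Stub1, a ubiquitin ligase gene, was 1.51-fold higher with fasting in wild-type liver, but its dimmer probe set fell short at a log2 difference of 0.37.

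In the salt-inducible kinase and CREB branch 0 of 11 measured genes were higher and 2 lower in the fasted comparison of genotypes, beside 8.58% and 13.6% of all measured genes. Gcgr, the glucagon receptor gene, read 620 and 891 units in fed and fasted wild-type and 601 and 505 units in fed and fasted null liver and was 1.77-fold lower. Crem, a CREB family gene, was 2.51-fold lower, at 98.7 and 39.3 units in fasted wild-type and null liver, and its second probe set read 16.9 and 10.2 units there, too close to the floor to give a fold. Cab39, which encodes a scaffold of the LKB1 kinase, was 1.84-fold higher with fasting in null liver, while its dimmer probe set had a log2 difference of 0.32. Creb3l3, a liver transcription factor induced by fasting, was higher with fasting in both genotypes, 1.53-fold in wild-type and 2.25-fold in null liver, and 2.03-fold lower in fed null than in fed wild-type liver, the 1 gene of the 5 lists past the threshold in the fed state.

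**Figure D3:**
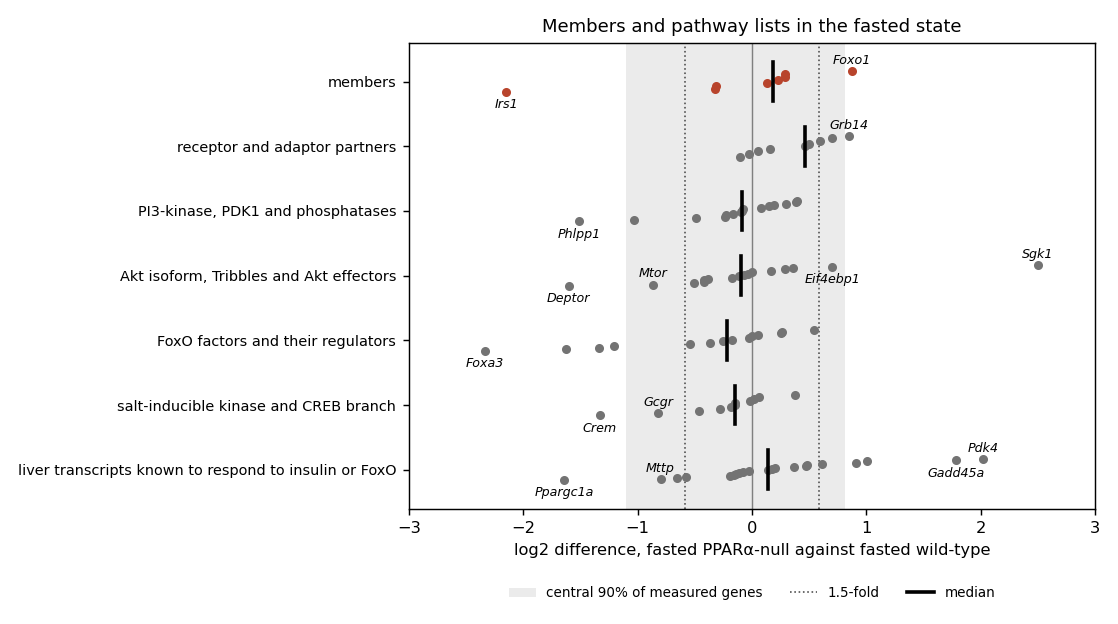
Log2 differences between fasted PPARα-null and fasted wild-type liver (x axis, 1 array per group) for the 8 measured members (red) and the measured genes of 6 pathway lists (grey, 1 dot a gene), with the median of each list as a bar, dotted lines at 1.5-fold and a grey band over the central 90% of measured genes. Irs1 at -2.15 and Foxa3 at -2.34 lie farthest to the left and Sgk1 at 2.50 farthest to the right.

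A further list held transcripts known to respond to insulin or FoxO in liver. It was chosen for such responses and with earlier results of these data known, so its shares with fasting are a description and no check. Of 21 measured genes 6 were higher and 4 lower with fasting in wild-type liver, and 7 were higher and 5 lower in null liver, beside 8.2% and 8.29%, and 12.4% and 18%, of all measured genes. Between the fasted pools 5 of the 21 were higher and 3 lower in null liver, beside 8.58% and 13.6%. Between the fed pools 2 of the 21 were higher and 1 lower in null liver, beside 2.38% and 2.12%. Igfbp1, the binding protein gene that insulin represses and FoxO1 activates, read 409 and 2802 units in fed and fasted wild-type liver and 483 and 5264 units in fed and fasted null liver. It was 6.85-fold higher with fasting in wild-type and 10.9-fold higher in null liver, and the fasted null pool was 1.88-fold above the fasted wild-type pool. Pck1, the gene of the gluconeogenic enzyme PEPCK, was 2.25-fold and 2.04-fold higher with fasting in wild-type and null liver. Srebf1, the insulin-induced regulator of lipogenesis, read 387 and 394 units in fed wild-type and fed null liver, 16.9 units after fasting of wild-type mice and a value below the floor in fasted null liver. It was 22.9-fold lower with fasting in wild-type, a fold that is uncertain so close to the floor, and at least 24.6-fold lower in null liver.

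Fasn, the fatty acid synthase gene, read 518 and 64.3 units in fed and fasted wild-type and 881 and 89.1 units in fed and fasted null liver, so that fed null mice were 1.70-fold above fed wild-type mice. Pnpla2, the adipose triglyceride lipase gene, was 8.85-fold and 9.16-fold higher with fasting in wild-type and null liver. Pdk4, which restrains pyruvate oxidation, read 22.5 and 41.3 units in fed and fasted wild-type liver and 107 and 168 units in fed and fasted null liver, higher in the null pool in both states. Bcl6, a repressor gene known as a FoxO target, read 673 and 104 units in fed and fasted wild-type and 414 and 102 units in fed and fasted null liver. It was 6.48-fold and 4.05-fold lower with fasting in wild-type and null liver. Fed null liver was 1.63-fold below fed wild-type liver, while the fasted pools were nearly equal.

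Mttp, the gene of the lipoprotein assembly protein MTP, was 1.74-fold lower in the fasted null pool than in its control, and Cat, the catalase gene, 1.58-fold lower, with a second Cat probe set just short of the threshold at a log2 difference of -0.56. Tat, the tyrosine aminotransferase gene, was 1.53-fold higher between the same pools. Ccng2, a cyclin gene known as a FoxO target, was 1.54-fold higher with fasting in wild-type liver.

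Not every responsive transcript behaved alike in the 2 genotypes. Ppargc1a, the FoxO1 coactivator gene, read 23.1 and 74.0 units in fed and fasted wild-type liver and 21.9 and 23.7 units in fed and fasted null liver. The fasting difference of Ppargc1a was 1.68 in wild-type and 0.12 on the log2 scale in null liver. Sesn1, a stress-induced FoxO target, read 54.1, 59.6 and 53.6 units in fed wild-type, fasted wild-type and fed null liver and 120 units in fasted null liver. Its other probe sets also had fasted null highest, at 150 and 104 units. They gave log2 differences of -0.14 and -0.93 between fed null and fed wild-type liver in the same order. Gadd45a, a growth arrest gene, read 51.3 and 34.0 units in fed and fasted wild-type liver and 46.1 and 117 units in fed and fasted null liver. The gene of glucose-6-phosphatase, G6pc, lay between 2534 and 2801 units on all 4 arrays. Whether these differences between genotypes exceed the spread between animals was not tested.

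**Figure D4:**
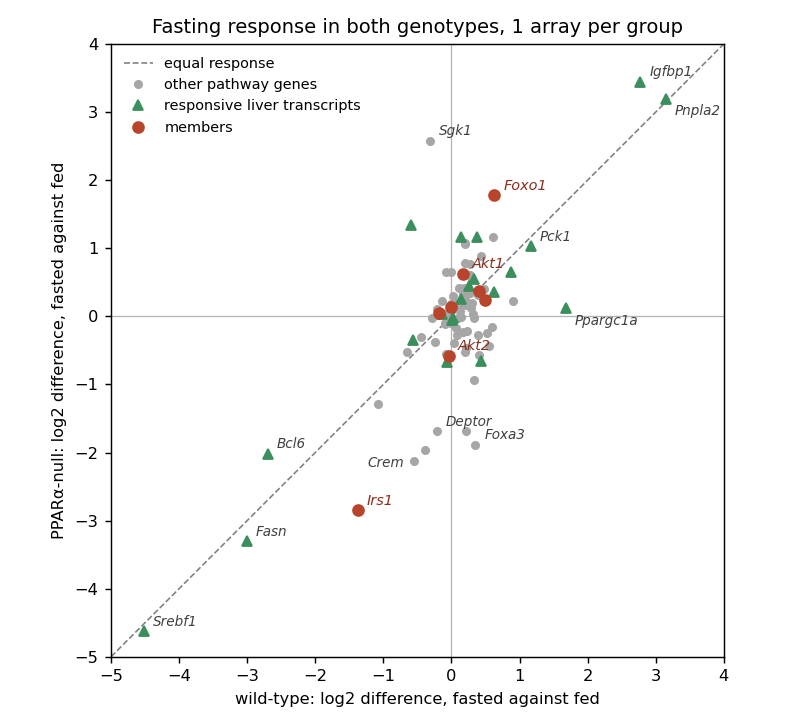
Fasting response, as log2 difference of fasted against fed, in wild-type (x axis) and PPARα-null liver (y axis) for the 8 measured members (red), the responsive liver transcripts (green triangles) and the other pathway genes (grey), with a dashed line where both responses are equal and 1 array per group. Irs1 lies below the line at -1.37 and -2.85, Foxo1 above it at 0.63 and 1.78, and Igfbp1 at 2.78 and 3.45.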

How the data were processed

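Liver RNA pools of 4 groups were hybridized to 1 array each. The authors deposited intensities on a linear scale, made by GCRMA, version 2.20 according to the submitters' processing notes, which corrects background by probe sequence, quantile normalizes and summarizes each probe set. The set of arrays normalized jointly is not stated in the sources, and scanner files were not used. Values were converted to log2. Probe sets naming several genes were not used to name any gene. Each gene was represented by the brightest of its probe sets (mean log2 over the arrays), with values below log2 of 4 (16 units) set to that floor, and 6947 of 12393 genes exceeded it on some array. A difference is between 2 arrays and was counted at 1.5-fold, the threshold of the study's methods for pooled arrays. No test was possible with 1 array per group, and the number of arrays limits the precision. The members and lists were chosen with earlier results of these data known. Named were all members, listed genes past 1.5-fold with 64 units or more on the brighter array (up to 5 a direction, list and comparison) and listed genes whose role is described, the 5 genes nearest to the member of widest range, and Ppara. Alternatives were a 2-fold threshold, other floors (none, log2 of 6), centring on probe sets at 64 units or more, quantile normalization, averaged probe sets and leaving out suffixed probe sets. Counting was tested on simulated data. Python 3.11.15, numpy 2.4.6, pandas 2.3.3 and matplotlib 3.10.9 were used.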

Additional observations from a re-analysis of the deposited data

How the results depend on the processing

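No paired analysis was possible because each group held 1 array, and for the same reason no replicate could be left out. Of 172 differences of single members recomputed under the 6 alternatives other than the fold threshold, 167 kept their side of 1.5-fold, 3 dropped below it, 2 moved past it and 0 of those past it changed sign. Irs1 kept its side of the threshold throughout. Foxo1 fell short when its probe sets were averaged, at 0.50 in the fasted comparison of genotypes and 0.58 for fasting in wild-type liver, with a probe set at the floor on all arrays in that average. Akt1 fell short at 0.46 for fasting in null liver with a floor at log2 of 6, and Sik1 passed with no floor, at 0.68 between the fasted pools and 0.64 for fasting in null liver.

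In the fasted comparison of genotypes the number of members higher, 1 as reported, was 0 at 2-fold, 0 with averaged probe sets and 2 of 10 with no floor. The shares of all genes higher there were 3.40%, 6.77% and 5.53% in the same order. Members lower in fed null liver were 0 at 2-fold, beside 0.633% of all genes. Members higher with fasting in wild-type liver were 0 at 2-fold and 0 with averaged probe sets, beside 2.91% and 6.54%. Members higher with fasting in null liver were 1 at 2-fold, 1 of 4 with a floor at log2 of 6 and 3 of 10 with no floor. Beside these stood 5.41%, 14.3% and 7.86% of all genes. Of the other pathway genes, 5 of 65 were higher in fasted null liver as reported. They were 1 at 2-fold, 8 of 67 with centring, 3 of 38 with the higher floor and 2 with averaged probe sets. The shares of all genes higher were 3.40%, 12.6%, 9.80% and 6.77% in the same order. The 10 lower ones were 6 of 36 without suffixed probe sets, beside 14.3% of all genes. With fasting in null liver 4 were higher at 2-fold and 7 with averaged probe sets, beside 5.41% and 9.69% of all genes. With the higher floor 4 of 38 were lower there, beside 20.1%. With fasting in wild-type liver 0 were higher and 1 lower at 2-fold, beside 2.91% and 3.57% of all genes. With averaged probe sets 1 was higher and 1 lower, beside 6.54% and 6.61%. Without suffixed probe sets 1 of 36 was lower, beside 8.23%. Fewer genes were measured with the higher floor and without suffixed probe sets, which lowers the counts there.

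Centring moved the median of all measured genes by 0.11 in the fasted comparison of genotypes, where 12.6% of genes were then higher and 10.2% lower. For fasting in null liver these shares became 15.9% and 14.4%. Of the members' directions 1 changed with the scaling, that of Pik3r1 between the fed pools, from 0.04 to -0.002 with quantile normalization. The choice of probe sets changed others. Between the fed pools Foxo1 went from -0.28 to 0.19 without suffixed probe sets. With averaged probe sets Akt1 went from -0.17 to 0.01 and Foxo3 from -0.08 to 0.06 there. With fasting in wild-type liver Akt2 went from -0.04 to 0.08 when averaged. Without suffixed probe sets Akt2 was not measured.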
